A study of Mus musculus with 69 samples.

Results

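Immediate early genes are the genes that neurons and other cells transcribe within minutes of a stimulus, before any new protein has been made. The 10 genes described here are Fos, Fosb, Fosl2, Jun, Junb, Egr1, Egr3, Arc, Nr4a1 and Npas4, chosen by name and not by their values, out of 52636 gene features in the deposited RNA count table. All 10 were present, and all 10 passed the filter on low counts that left 14016 genes for testing. RNA came from whole nucleus accumbens tissue of male mice, a part of the ventral striatum, in 32 libraries. There were 4 groups of 8. Standard GFP mice had standard rearing and ELS GFP mice had early life stress (ELS), and both are labelled GFP. Standard Dot1l overexpression mice had standard rearing with Dot1l raised, and ELS Dot1l knockdown mice had ELS with Dot1l lowered, as the labels name them. Dot1l encodes the methyltransferase of lysine 79 of histone H3, and dimethylation of that lysine (H3K79me2) was profiled in chromatin of Standard and ELS accumbens and deposited as 1 peak list for each. The sources used here do not give the vector, the promoter that drives it, the share of cells that carry it, the age of the mice or the time between any stimulus and tissue collection, nor whether each library is 1 animal. If libraries share an animal, the p-values below measure a spread that is in part technical.

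As background, a stimulus reaches these genes through calcium, cyclic AMP and MAP kinase signalling, which act on transcription factors already bound at their promoters, among them CREB and the serum response factor SRF. FOS and JUN proteins pair to form the factor AP-1, EGR proteins are zinc-finger factors, NR4A1 is an orphan nuclear receptor, NPAS4 is a factor found mainly in neurons, and ARC is a cytoskeletal protein of the synapse. Several of them are not confined to neurons: Fos, Junb and Egr1 also respond to stimuli in microglia, astrocytes and endothelial cells. In the striatum, products of Fosb accumulate over repeated drug exposure or stress and are widely used as a marker of chronic activation.

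Libraries held between 314200 and 11117998 counts. The 4 shallowest were Standard GFP replicates 1, 4 and 5 and ELS Dot1l knockdown replicate 7, with at most 980189 counts. Levels are given in CPM, the counts of a gene rescaled to a common library total, with library sizes corrected by the trimmed mean of M values (TMM). Dot1l itself did not separate the groups: its medians were 36.3 CPM for Standard GFP and 35.0 CPM for ELS GFP, beside 37.7 CPM for overexpression and 38.4 CPM for knockdown as labelled. With edgeR its log2 difference was 0.33 (SE 0.27, adjusted p = 0.741) for overexpression and 0.28 (SE 0.27, adjusted p = 0.985) for knockdown, the latter on the side opposite to the label. Groups below therefore carry their labels and not a shown change of Dot1l. The 10 markers of medium spiny neurons, the main neurons of this tissue, were all detected and summed to between 426 and 2702 CPM per library. Their median was higher in Standard GFP, at 1191 CPM, than in ELS GFP (666 CPM), overexpression (660 CPM) and knockdown (724 CPM), with ranges that overlap, and the part of this in the contrasts below was not tested. Gfap (astrocytes) and P2ry12 (microglia) were listed at 0 in all 32 libraries, although the 6 astrocyte markers summed to between 1054 and 3376 CPM and the 5 microglia markers used to between 41.0 and 819 CPM. In whole tissue, fewer cells of a type and less RNA per cell cannot be told apart.

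Promoter sequences show which letters occur near the start sites of members. Windows of 250 bases before to 50 bases after the RefSeq start (GRCm38.p6, the same build as mm10) were used for 7 members: Fos, Fosb, Fosl2, Jun, Junb, Nr4a1 and Npas4. Promoters of Arc, Egr1 and Egr3 were not searched. The letters TGACG, the core that CREB-type factors recognise in a cyclic AMP response element (CRE), occurred on either strand in 5 of the 7 windows, against 20.8% of all 32851 mouse promoter windows of that length. Those 5 are printed 5′ to 3′ on the strand of the gene, as the 250 bases before the start, with each TGACG or its reverse complement CGTCA in capitals.

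Fos: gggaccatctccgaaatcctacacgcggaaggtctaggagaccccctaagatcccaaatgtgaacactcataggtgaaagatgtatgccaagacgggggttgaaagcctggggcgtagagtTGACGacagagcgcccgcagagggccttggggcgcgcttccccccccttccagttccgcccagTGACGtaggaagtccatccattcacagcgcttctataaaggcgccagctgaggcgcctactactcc
Fosb: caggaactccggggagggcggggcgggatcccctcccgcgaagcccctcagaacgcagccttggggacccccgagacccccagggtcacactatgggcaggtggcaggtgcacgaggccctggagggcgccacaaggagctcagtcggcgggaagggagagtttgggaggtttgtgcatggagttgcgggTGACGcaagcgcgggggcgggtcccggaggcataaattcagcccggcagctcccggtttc
Junb: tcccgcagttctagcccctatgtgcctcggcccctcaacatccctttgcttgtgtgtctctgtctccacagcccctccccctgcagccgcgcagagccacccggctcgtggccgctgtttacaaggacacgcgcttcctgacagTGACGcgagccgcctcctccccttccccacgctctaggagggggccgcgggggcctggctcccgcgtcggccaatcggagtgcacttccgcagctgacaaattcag
Nr4a1: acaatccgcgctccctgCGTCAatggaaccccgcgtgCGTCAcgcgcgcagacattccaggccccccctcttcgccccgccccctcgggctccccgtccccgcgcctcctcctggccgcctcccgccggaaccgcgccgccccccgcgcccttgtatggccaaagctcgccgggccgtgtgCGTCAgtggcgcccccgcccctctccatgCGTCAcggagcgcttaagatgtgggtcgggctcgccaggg
Npas4: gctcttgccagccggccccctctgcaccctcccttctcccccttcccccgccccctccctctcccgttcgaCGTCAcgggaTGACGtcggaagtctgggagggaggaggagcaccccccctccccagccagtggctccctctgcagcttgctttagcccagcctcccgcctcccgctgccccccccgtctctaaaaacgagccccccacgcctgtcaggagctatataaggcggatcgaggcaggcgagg

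The windows lie at chr12:85473640-85473939 on the plus strand (Fos), chr7:19309996-19310295 on the minus strand (Fosb), chr8:84978699-84978998 on the minus strand (Junb), chr15:101266596-101266895 on the plus strand (Nr4a1) and chr19:4989922-4990221 on the minus strand (Npas4). Counted from the start site, cores began at -129 and -66 in Fos, at -60 in Fosb, at -106 in Junb, at -179 and -169 in Npas4, and at -233, -213, -69 and -40 in Nr4a1. The full CRE palindrome TGACGTCA was in 0 of the 7 windows (1.79% of all promoters), the AP-1 letters TGANTCA in 0 (7.81%), the CArG box that SRF recognises in 0 (1.63%) and the NR4A letters AAAGGTCA in 0 (1.51%). The EGR letters GCGNGGGCG were in 3 of the 7, those of Fosb, Fosl2 and Nr4a1 (5.55% of all promoters), and TATAAA was in Fos and Junb (13.6%). In Fos TATAAA began at -33, but in Junb it began at 1, the RefSeq start itself, and so lies outside the bases printed. GC content of the 7 windows was 58.7% to 72.3%, against a median of 52.7% over all promoters. A match is a description of letters and does not show that a factor binds there, and each motif was searched on both strands. Sequence outside these windows was not searched, so a count of 0 does not show that a member lacks such a site.

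The RNA comparisons ask whether ELS, and raising or lowering Dot1l, shift the standing level of these genes in the accumbens. By edgeR's quasi-likelihood test, in no contrast did a member pass an adjusted p of 0.05, and DESeq2 and limma also called 0 of the 10. The count was 0 of 10 for ELS GFP minus Standard GFP, for Standard Dot1l overexpression minus Standard GFP and for ELS Dot1l knockdown minus ELS GFP, and the same held for 0% of all 14016 genes in each contrast. At an unadjusted p under 0.05 there were 0 members for ELS (11.7% of all genes), 1 for overexpression (Egr3, 10.9% of all genes) and 1 for knockdown (Fosb, 6.18% of all genes). A test for any difference among the 4 groups called 0 members, against 1.27% of all genes after adjustment. Without adjustment it held 1 member, Egr3 (p = 0.0141, adjusted p = 0.236), against 12.4% of all genes. All 10 members overlapped between the groups in every contrast. The share of all tested genes that overlap in this way was not computed, so the overlap is a description only. The ELS and overexpression contrasts share the Standard GFP libraries, and the ELS and knockdown contrasts share the ELS GFP libraries.

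**Figure D1:**
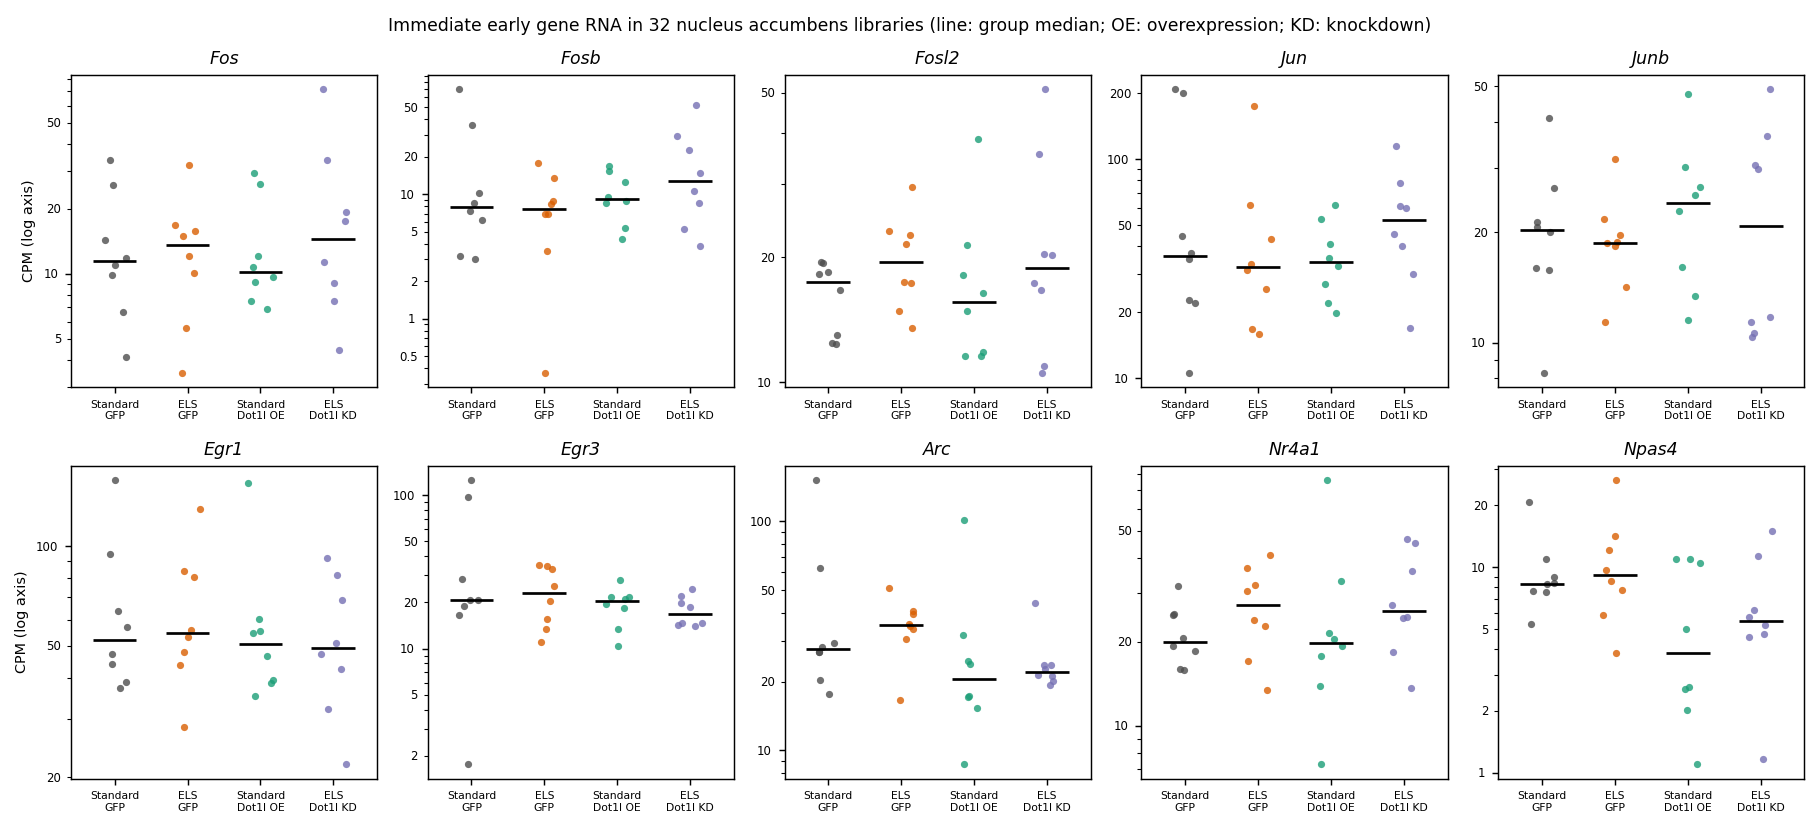
Each point is 1 library, with its level in CPM on a log axis, for the 10 members in the 4 groups of 8, and each line is a group median. Groups overlap for every member, and single libraries stand high, such as Standard GFP replicate 5 for Fosb at 70.5 CPM and overexpression replicate 1 for Arc at 101 CPM.

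Among the FOS family, which supplies the partners of JUN in AP-1, Fos differed little between rearing groups. Fos lay between 4.14 and 33.5 CPM in Standard GFP (median 11.4), 3.48 and 31.9 CPM in ELS GFP (median 13.53), 6.88 and 29.4 CPM in those labelled overexpression (median 10.2), and 4.44 and 71.9 CPM in those labelled knockdown (median 14.5). The ranges cover one another almost wholly apart from the 71.9 CPM of knockdown replicate 8, which alone held 41.1% of that group's summed level. The fitted log2 difference was -0.05 (SE 0.48, adjusted p = 0.988) for ELS, -0.03 (SE 0.48, adjusted p = 0.994) for overexpression and 0.68 (SE 0.47, adjusted p = 0.953) for knockdown. Leaving out knockdown replicate 8 took the last value to 0.10.

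Fosb, whose truncated product ΔFosB is long-lived, gave the widest differences of the family. Its level lay between 3.003 and 70.5 CPM in Standard GFP (median 7.91), 0.366 and 17.9 CPM in ELS GFP (median 7.65), 4.37 and 17.0 CPM in those labelled overexpression (median 9.16), and 3.86 and 51.7 CPM in those labelled knockdown (median 12.8). In Standard GFP, replicate 5 (70.5 CPM) and replicate 6 (36.1 CPM) stood above the rest, and replicate 5, a shallow library, held 48.6% of the group's summed level. The log2 difference for ELS was -1.05 (SE 0.59, adjusted p = 0.506), yet the medians differed by only -0.05, and the fit without Standard GFP replicate 5 gave -0.40. For overexpression the fit gave -0.74 (SE 0.59, adjusted p = 0.728) and the medians 0.21, on opposite sides of 0, and -0.09 without that library. For knockdown against ELS GFP, fit and medians lay on the same side, at 1.17 (SE 0.57, p = 0.0485, adjusted p = 0.804) and 0.74. There 6 of the 8 knockdown libraries lay above the ELS GFP median, and the fit without knockdown replicate 8 was 0.73. The deposited counts are per gene, so ΔFosB and full-length Fosb RNA were not separated.

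Fosl2, which encodes the Fos-related antigen FRA-2, had the narrowest spread of the family in Standard GFP. It lay between 12.3 and 19.5 CPM there (median 17.5), 13.49 and 29.7 CPM in ELS GFP (median 19.5), 11.5 and 38.7 CPM in those labelled overexpression (median 15.6), and 10.5 and 51.1 CPM in those labelled knockdown (median 18.8). Its log2 differences were 0.27 (SE 0.29) for ELS, 0.12 (SE 0.29) for overexpression and 0.19 (SE 0.29) for knockdown, with adjusted p of 0.798, 0.943 and 0.998. Overexpression replicate 1 and knockdown replicate 8 were the high libraries, and without them the last 2 differences were -0.14 and -0.09.

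In the JUN family, which can pair with FOS proteins or with itself, Jun was set by a few libraries. It lay between 10.6 and 209 CPM in Standard GFP (median 36.2), 15.99 and 175 CPM in ELS GFP (median 32.3), 19.9 and 61.8 CPM in those labelled overexpression (median 33.9), and 16.9 and 115 CPM in those labelled knockdown (median 52.8). Standard GFP replicates 1 and 6 reached 209 and 199 CPM, and ELS GFP replicate 2 reached 175 CPM where the next library of its group had 61.5 CPM. The log2 difference was -0.56 (SE 0.50, adjusted p = 0.747) for ELS, -0.99 (SE 0.50, adjusted p = 0.482) for overexpression and 0.18 (SE 0.50, adjusted p = 0.998) for knockdown. The log2 ratios of medians were -0.16, -0.09 and 0.71. Leaving out Standard GFP replicate 1 gave -0.12 for ELS, leaving out Standard GFP replicate 6 gave -0.55 for overexpression, and leaving out ELS GFP replicate 2 gave -1.16 for ELS and 0.78 for knockdown. Junb encodes a JUN protein with weaker activating power. It lay between 8.28 and 41.0 CPM in Standard GFP (median 20.4), 11.4 and 31.8 CPM in ELS GFP (median 18.8), 11.6 and 47.6 CPM in those labelled overexpression (median 24.1), and 10.4 and 49.3 CPM in those labelled knockdown (median 20.8). Knockdown libraries of Junb fell into a higher and a lower set of 4, as the plot of levels shows, with no library near the median. Its log2 differences were -0.15 (SE 0.33, adjusted p = 0.924), 0.17 (SE 0.33, adjusted p = 0.923) and 0.31 (SE 0.33, adjusted p = 0.989) in the same order.

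Of the EGR family, Egr1, also called Zif268 and a common marker of recent activity, had nearly equal medians. It lay between 37.3 and 159 CPM in Standard GFP (median 52.1), 28.4 and 130 CPM in ELS GFP (median 54.6), 35.2 and 155 CPM in those labelled overexpression (median 50.7), and 21.9 and 92.1 CPM in those labelled knockdown (median 49.2). The log2 differences were -0.04 (SE 0.34), -0.14 (SE 0.34) and -0.25 (SE 0.33), with adjusted p of 0.988, 0.940 and 0.998.

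Egr3, an EGR factor studied in accumbens neurons after drug exposure and stress, had the smallest p of the 10 members. Its level lay between 1.76 and 125.4 CPM in Standard GFP (median 20.7), 10.98 and 35.0 CPM in ELS GFP (median 23.1), 10.4 and 27.9 CPM in those labelled overexpression (median 20.4), and 13.95 and 24.5 CPM in those labelled knockdown (median 16.7). Standard GFP held both extremes: replicate 5 was lowest, at 1 read in a shallow library, and replicates 6 and 1 were highest, at 125.4 and 97.1 CPM, above all libraries of the other groups. As means, Egr3 stood at 41.2 ± 44.6 CPM in Standard GFP and 19.3 ± 5.39 CPM in those labelled overexpression (SD, n = 8 each). The log2 difference for overexpression was -1.11 (SE 0.40, p = 0.0095, adjusted p = 0.263), whereas the medians differed by -0.02 and 4 of the 8 overexpression libraries lay above the Standard GFP median. For ELS the fit gave -0.81 (SE 0.40, adjusted p = 0.429) and the medians 0.16, on opposite sides of 0. Without Standard GFP replicate 6 the 2 fitted values were -0.59 and -0.29. For knockdown against ELS GFP the fit gave -0.42 (SE 0.40, adjusted p = 0.985) and the medians -0.47, with 1 of the 8 knockdown libraries above the ELS GFP median.

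Arc, the member that acts at the synapse instead of at promoters, had fit and medians on opposite sides of 0 for ELS. It lay between 17.7 and 151 CPM in Standard GFP (median 27.7), 16.6 and 50.9 CPM in ELS GFP (median 35.2), 8.70 and 101 CPM in those labelled overexpression (median 20.5), and 19.3 and 43.9 CPM in those labelled knockdown (median 22.0). Of the 8 ELS GFP libraries 7 lay above the Standard GFP median, and 1 of the 8 knockdown libraries lay above the ELS GFP median. Standard GFP replicate 5 (151 CPM, 41.6% of its group) and overexpression replicate 1 (101 CPM, 42.2% of its group) were far above the others. For ELS the fitted log2 difference was -0.32 (SE 0.40, adjusted p = 0.839) against a log2 ratio of medians of 0.35, and the fit turned to 0.22 without Standard GFP replicate 5. For overexpression the medians differed by -0.43 and the fit gave -0.55 (SE 0.40, adjusted p = 0.690), -0.02 without Standard GFP replicate 5 and -1.11 without overexpression replicate 1. For knockdown it gave -0.52 (SE 0.40, adjusted p = 0.972), with the medians at -0.68.

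Nr4a1, a nuclear receptor also known as Nur77 that dopamine signalling regulates in the striatum, was on the higher side of all 3 fits. It lay between 15.9 and 31.8 CPM in Standard GFP (median 20.0), 13.49 and 40.9 CPM in ELS GFP (median 27.1), 7.28 and 76.0 CPM in those labelled overexpression (median 19.8), and 13.7 and 46.6 CPM in those labelled knockdown (median 25.9). The log2 differences were 0.32 (SE 0.33, adjusted p = 0.781), 0.26 (SE 0.33, adjusted p = 0.858) and 0.13 (SE 0.32, adjusted p = 0.998), each within 1 SE of 0. Overexpression replicate 1 carried the 76.0 CPM, and without it the overexpression value was -0.19.

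Npas4, which acts in neurons to adjust inhibitory and excitatory synapses, was lower by its median in both Dot1l groups than in their GFP controls, without passing the test. It lay between 5.28 and 20.7 CPM in Standard GFP (median 8.33), 3.84 and 26.6 CPM in ELS GFP (median 9.16), 1.10 and 10.98 CPM in those labelled overexpression (median 3.82), and 1.17 and 14.9 CPM in those labelled knockdown (median 5.50). In the overexpression group 3 libraries lay above the Standard GFP median and 5 below. The log2 difference was 0.25 (SE 0.45, adjusted p = 0.900) for ELS, -0.72 (SE 0.46, adjusted p = 0.624) for overexpression and -0.70 (SE 0.44, adjusted p = 0.940) for knockdown. Medians lay on the same side, at 0.14, -1.12 and -0.74, and the lowest libraries of Standard GFP, overexpression and knockdown rested on 3, 4 and 5 reads.

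**Figure D2:**
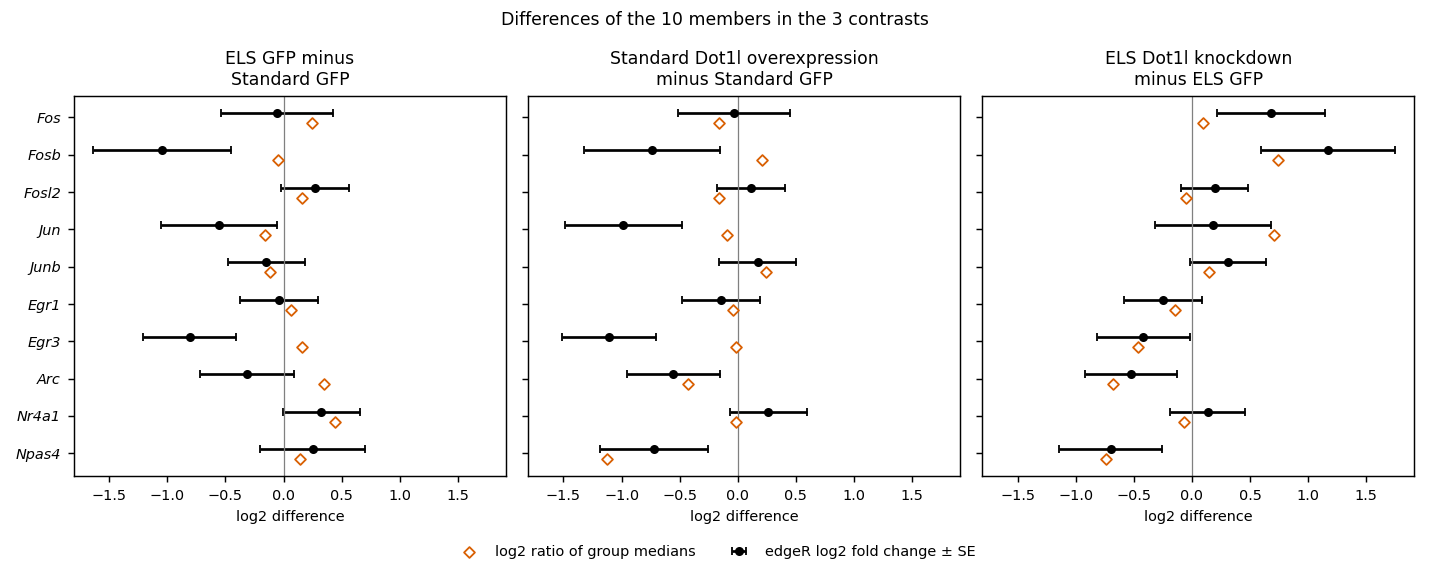
Filled points are edgeR log2 fold changes with bars of 1 SE, and open diamonds are log2 ratios of group medians, for the 10 members in the 3 contrasts. Fit and medians lie far apart for some members. For Egr3 in the overexpression contrast, where Standard GFP replicates 6 and 1 are high, they are -1.11 and -0.02. In the knockdown contrast they are 0.68 and 0.10 for Fos, and 0.18 and 0.71 for Jun.

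Over the 10 members the median log2 difference was -0.10 for ELS (3 higher, 7 lower), -0.35 for overexpression (3 higher, 7 lower) and 0.16 for knockdown (6 higher, 4 lower), where all genes tested had medians of -0.01, 0.02 and 0.0019. Of all genes tested 51.2%, 48.5% and 49.8% were lower. The split of the members was not tested against these shares. Taken from group medians in place of the fit, the median log2 difference of the members was 0.15, -0.07 and -0.06, so its sign turned for ELS and for knockdown. Replicates 4 and 8 of the knockdown group divided the members between them. Replicate 8 was the highest of its group for the AP-1 genes Fos, Fosb, Fosl2, Jun and Junb. Replicate 4 was the highest for Egr1, Egr3, Arc, Nr4a1 and Npas4. In the overexpression group, replicate 1 was highest for 5 members: Fosl2, Junb, Egr1, Arc and Nr4a1.

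Several members went together from library to library within groups, although not all of them did. After each group's mean log2 CPM was subtracted, 36 of the 45 pairs of members had a positive Pearson r over the 32 libraries, and the median r was 0.25, beside 0.02 over all pairs of tested genes. A permutation test within groups (100000 draws, 2-sided, adjusted over the 45 pairs) put 12 pairs past 0.05, all positive. An r at least as high as the weakest of these, 0.47, was held by 3.98% of all 98217120 gene pairs. By Spearman's rho 10 of the 12 also passed, and 9 of the 12 were positive in each of the 4 groups. All values share the libraries, their depth and their cell makeup.

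**Figure D3:**
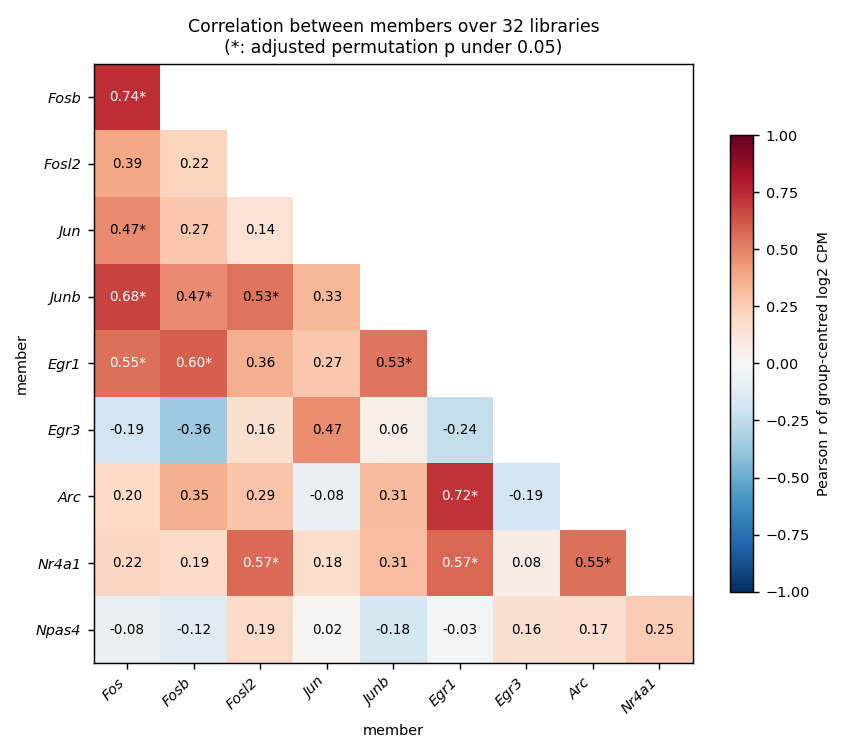
Cells give Pearson r between members over 32 libraries after subtraction of group means, with an asterisk where the adjusted permutation p is under 0.05. The 12 marked pairs link Fos, Fosb, Fosl2, Jun, Junb, Egr1, Arc and Nr4a1, and Egr3 and Npas4 have no marked pair.

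The closest pair was Fos and Fosb, with r = 0.74 (rho 0.70, permutation p = 1e-05, the smallest the draws can give, adjusted p = 0.00045). Within groups it was 0.77 in Standard GFP, 0.82 in ELS GFP, 0.39 with overexpression and 0.83 with knockdown, and 0.69 without the 2 libraries farthest from the median. Fos also went with Junb (r = 0.68, rho 0.66, permutation p = 8e-05, adjusted p = 0.0012), with Egr1 (r = 0.55, rho 0.57, adjusted permutation p = 0.015) and with Jun (r = 0.47, rho 0.59, adjusted permutation p = 0.033). Fosb went with Egr1 (r = 0.60, rho 0.54, adjusted permutation p = 0.00596) and Junb (r = 0.47, rho 0.51, adjusted permutation p = 0.0321). Junb went with Egr1 (r = 0.53, rho 0.54, adjusted permutation p = 0.0181) and with Fosl2 (r = 0.53, rho 0.41, adjusted permutation p = 0.0321). Fos, Fosb, Junb and Egr1 thus form a block in which every pair passed. Jun passed only with Fos, and among the AP-1 genes Fosl2 passed only with Junb.

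Egr1 was at the same time the closest partner of Arc, with r = 0.72 (rho 0.63, permutation p = 2e-05, adjusted p = 0.00045). It was 0.95 in Standard GFP, 0.34 in ELS GFP, 0.85 with overexpression and 0.63 with knockdown. Without the 2 farthest libraries, overexpression replicate 1 and Standard GFP replicate 5, r was 0.52. Egr1, Arc and Nr4a1 formed a second block, with r = 0.57 between Egr1 and Nr4a1 (rho 0.56, adjusted permutation p = 0.0104) and 0.55 between Arc and Nr4a1 (rho 0.47, adjusted permutation p = 0.0181), but both pairs were negative in Standard GFP, at -0.31 and -0.37. Nr4a1 also went with Fosl2 (r = 0.57, rho 0.42, adjusted permutation p = 0.0181), which fell to 0.36 without the 2 farthest libraries. Fos and Egr1, in turn, had r = -0.39 with overexpression and 0.65 to 0.90 in the other groups.

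Egr3 and Npas4 had 0 pairs past the threshold. For Egr3 this depended on the setting: without centring on group means Jun and Egr3 passed (r = 0.45, adjusted permutation p = 0.039), and without Standard GFP replicate 6 and knockdown replicate 8 Fosb and Egr3 passed with a negative r (-0.65, adjusted permutation p = 0.0154). Their r with the other members ran from -0.36 (Fosb and Egr3) to 0.47 (Jun and Egr3, rho 0.10, adjusted permutation p = 0.15). With Npas4, the highest r was 0.25, for Nr4a1.

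Microglia markers moved with 3 AP-1 genes. The log2 of the summed CPM of Csf1r, Cx3cr1, Tmem119, C1qa and P2ry12, after subtraction of group means, had r = 0.64 with Fos (rho 0.65, adjusted permutation p = 0.0136), 0.61 with Fosb (rho 0.65, adjusted permutation p = 0.0255) and 0.67 with Junb (rho 0.70, adjusted permutation p = 0.012). Without the 2 libraries with the most extreme marker sum these were 0.66, 0.63 and 0.76. Within single groups they ran from 0.28 to 0.91 for Fos, 0.27 to 0.82 for Fosb and 0.36 to 0.77 for Junb. The other members did not pass. For Egr1 r was 0.48 (rho 0.46, adjusted permutation p = 0.14), and for Jun it was 0.42 (rho 0.54, adjusted permutation p = 0.281). By rho the adjusted permutation p was 0.104 for Egr1 and 0.0563 for Jun. The r was 0.18 for Fosl2, 0.22 for Arc and -0.03 for Nr4a1, and -0.18 and -0.24 for Egr3 and Npas4. The summed markers themselves lay between 72.8 and 819 CPM in Standard GFP (median 236), 41.0 and 369 CPM in ELS GFP (median 166), 96.1 and 489.6 CPM in those labelled overexpression (median 265), and 67.4 and 435 CPM in those labelled knockdown (median 344). P2ry12 added 0 to every sum. With the marker sum regressed out of each member, an alternative chosen after seeing the data, 6 of the 12 pairs remained past the threshold: Fos and Fosb, Egr1 and Arc, Egr1 and Nr4a1, Arc and Nr4a1, Fosl2 and Nr4a1, and Fosl2 and Junb. What part microglia have in the levels of these members was not tested. The share of all tested genes with so close a relation to the marker sum was not computed, so the relation is not shown to be particular to these members.

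**Figure D4:**
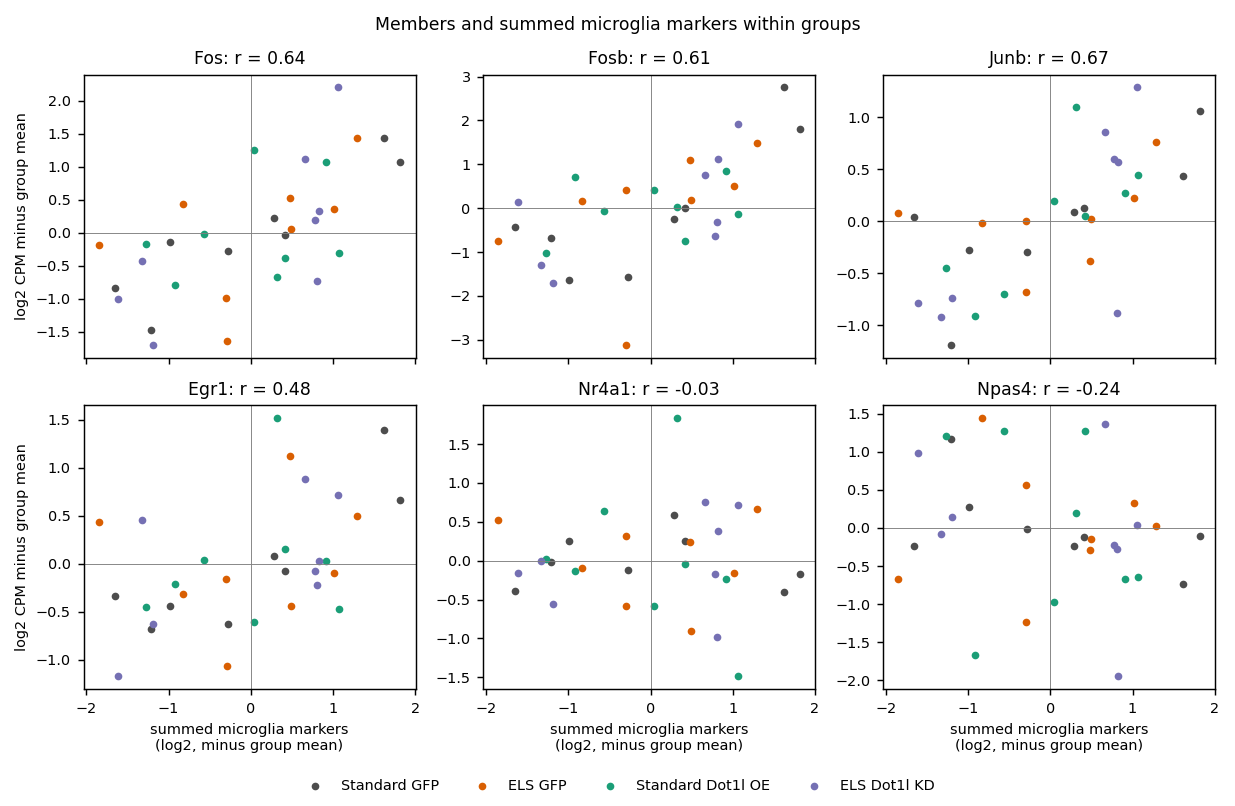
Each point is 1 of 32 libraries, with the log2 of the summed CPM of 5 microglia markers on the x axis and the log2 CPM of a member on the y axis, both after subtraction of the group mean. Fos, Fosb and Junb slope upward (r of 0.64, 0.61 and 0.67), Egr1 less so (0.48, not past the threshold), and Nr4a1 (-0.03) and Npas4 (-0.24) do not.

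In all, 120 relations between the 10 members and 12 measures of the libraries were computed, and 6 passed after adjustment over them. The share that would pass over all tested genes was not computed. Beside the 3 with microglia, summed heat shock genes had r = 0.61 with Egr1 (rho 0.51, adjusted permutation p = 0.0136) and 0.53 with Arc (rho 0.48, adjusted permutation p = 0.0348), and summed haemoglobin genes had r = 0.55 with Npas4 (rho 0.46, adjusted permutation p = 0.0305). By rho these 3 did not pass (adjusted permutation p = 0.0563, 0.104 and 0.104), and the 3 with microglia did. By rho alone a further pair of relations passed, both negative: Junb with summed endothelial markers (rho -0.55, adjusted permutation p = 0.0288, r = -0.44) and Fos with summed markers of cortical or other glutamatergic neurons (rho -0.58, adjusted permutation p = 0.0288, r = -0.42). Without the 2 libraries farthest in the measure, r with heat shock genes was 0.42 for Egr1 and 0.51 for Arc. For Npas4 with haemoglobin genes it was 0.45. For Junb with endothelial markers it was -0.37, and for Fos with glutamatergic neuron markers -0.56. Within groups the relation of Arc to heat shock genes ran from -0.39 to 0.92. Egr3 had r = 0.70 with summed interneuron markers (rho 0.50, adjusted permutation p = 0.079), which fell to 0.22 without the 2 farthest libraries. Depth had r between -0.21 and 0.34 with the members, the share of counts in the 10 most abundant features between -0.16 and 0.38, and medium spiny neuron markers between -0.21 and 0.34.

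For each member the 2 genes with the highest rho over the 32 libraries were found among all tested genes, as a description. For Fos they were Baz1a, a chromatin remodelling subunit from the late response list described further on (rho 0.89), and Pxn, the adhesion protein paxillin (0.82), and for Fosb Itga6, an integrin (0.78), and Dnm2, a dynamin (0.78). For Junb they were Dock8 (0.86) and Plcg2 (0.85), a guanine nucleotide exchange factor and a phospholipase known from immune cells, and for Jun the lysosomal protease gene Ctsz (0.81) and the PI3-kinase subunit gene Pik3r5 (0.81). Egr1 was followed by Daxx (0.75) and Nr4a2 (0.72), and Arc by Nr4a2 (0.67) and Lrwd1 (0.64), so the nuclear receptor gene Nr4a2, itself an immediate early gene, was among the closest to both. The others were Mrs2 (0.69) and D1Ertd622e (0.66) for Fosl2, Ralgapa2 (0.70) and Nol6 (0.70) for Egr3, Hnrnpab (0.65) and Cmss1 (0.60) for Nr4a1, and Gnb4 (0.67) and Stk33 (0.66) for Npas4. Among all tested genes ranked by rho to Egr1, Arc came 29th of 14015, and Fos came 35th for Fosb. In the other direction Egr1 came 4th for Arc, and Fosb 84th for Fos. Junb came 149th for Fos, and Fos 223rd for Junb, so many other genes lay closer than these members.

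Genes around the members in the same pathway gave 0 calls in edgeR after adjustment in any contrast. At an unadjusted p under 0.05, in the order ELS, overexpression and knockdown, there were 1, 1 and 2 among the other immediate early genes, 3, 1 and 1 among the late response genes, 2, 1 and 0 among the upstream factors, 4, 3 and 0 among the kinases and phosphatases, and 0, 2 and 1 among the heat shock genes. Over all 14016 genes the shares at that p were 11.7%, 10.9% and 6.18% in the same order. Of all these genes 51.2%, 48.5% and 49.8% were lower, beside which the splits below can be read. Of 33 other activity-regulated immediate early genes 30 were tested, with 18 higher and 12 lower for ELS (median log2 0.04), 14 and 16 for overexpression (median -0.03), and 21 and 9 for knockdown (median 0.11). The smallest p on each side belonged to Gadd45b (0.88, SE 0.61) and Ccn1 (-1.63, SE 0.66) for ELS, Klf6 (0.76, SE 0.33) and Egr2 (-1.60, SE 0.86) for overexpression, and Dusp6 (2.08, SE 0.61) and Fosl1 (-0.99, SE 0.75) for knockdown. Single libraries held 72.4% of Ccn1 and 80.0% of Egr2 in Standard GFP and 75.5% of Dusp6, a phosphatase of ERK, in the knockdown group.

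Of 18 late response genes and synaptic effectors 16 were tested, with 8 higher and 8 lower for ELS and for overexpression (medians -0.0018 and -0.03) and 10 and 6 for knockdown (median 0.19). Dusp5 (2.62, SE 0.63, adjusted p = 0.12) and Vgf (-0.92, SE 0.35) led for ELS, Pcsk1 (0.98, SE 0.52) and Homer1 (-0.72, SE 0.29) for overexpression, and Scg2 (0.46, SE 0.31) and Dusp5 (-1.53, SE 0.58) for knockdown. A single ELS GFP library held 63.9% of Dusp5 in its group, and the log2 ratio of medians was 2.03 for ELS and -0.55 for knockdown. For Pcsk1 a single overexpression library held 61.1% of its group, and the log2 ratio of medians was 0.19.

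Upstream of the members, 14 of 15 transcription factors and cofactors were tested, with 3 higher and 11 lower for ELS (median -0.22), 5 and 9 for overexpression (median -0.11) and 9 and 5 for knockdown (median 0.10). The CREB coactivator Crtc1 had the smallest p on the lower side for ELS (-0.57, SE 0.23) and for overexpression (-0.59, SE 0.23), and Elk1, a partner of SRF, on the higher side (0.23 and 0.37, SE 0.33 each). For knockdown these were Crtc3 (-0.42, SE 0.32) and Mrtfb (0.41, SE 0.21). For Crtc3 the log2 ratio of medians was 0.20, on the other side of 0, and 1 ELS GFP library held 42.2% of its group's summed level. All 18 kinase and phosphatase genes were tested, with 4 higher and 14 lower for ELS (median -0.40), 6 and 12 for overexpression (median -0.16) and 7 and 11 for knockdown (median -0.01). Rps6ka4, an MSK kinase that acts on CREB and histone H3, had -2.37 (SE 0.62, adjusted p = 0.12) for ELS and -2.09 (SE 0.61, adjusted p = 0.167) for overexpression, but 1 Standard GFP library held 81.0% of it and the medians differed by -0.26 and 0.12. On the other side stood Camkk2 (0.19, SE 0.26) for ELS, Mapk3 (0.37, SE 0.27) for overexpression and Map2k1 (0.36, SE 0.22) for knockdown, where Ppp3r1 (-0.38, SE 0.35) was lowest in p among the lower ones. The log2 ratio of medians of Ppp3r1 was 0.06, on the other side of 0.

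Of 8 heat shock genes 6 were tested, with medians of -0.06, 0.05 and -0.04 in the 3 contrasts. Hspa8 (0.15, SE 0.18) and Dnajb1 (-0.26, SE 0.56) had the smallest p for ELS, Bag3 (1.24, SE 0.51) and Hsph1 (-0.17, SE 0.27) for overexpression, and Dnajb1 (0.55, SE 0.54) and Hsph1 (-0.57, SE 0.27) for knockdown. A single overexpression library held 53.2% of Bag3 in its group, and the log2 ratio of its medians was 0.34.

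H3K79me2, a mark of transcribed gene bodies downstream of start sites, was listed at few members. By gene name, 3 of the 10 had a peak in the Standard list, Fosl2, Arc and Egr3, and 2 in the ELS list, Fosl2 and Arc. Among all genes tested for RNA the Standard list named a peak for 56.9% and the ELS list for 52.7%. Among those whose RefSeq span lies between that of the shortest member (1840 bp) and the longest (21369 bp) it was 53.9% and 47.5%. Genes in that range were not weighted by length. Fos, Fosb, Jun, Junb, Egr1, Egr3 and Arc span only 1840 to 7423 bp, so these shares are not matched to them. The lists hold 117819 and 106374 distinct peaks and no value per library, so differences between them were not tested, and fold enrichment and q-value are the authors' own values.

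Fosl2, the longest member, had the most peaks by gene name. The Standard list had 6 peaks there with a combined width of 3129 bp and the ELS list 4 with 3017 bp, with centres 4508 to 11523 bp behind the RefSeq start. The widest was the ELS peak at chr5:32140669-32142847, with a fold enrichment of 2.25, over 84.9% of that list's peaks, and a q-value of 8.07e-09. Across the same stretch the Standard list had 3 separate peaks, at chr5:32140694-32141266, chr5:32141428-32142311 and chr5:32142499-32143229, with folds of 2.06, 2.01 and 1.96. Of the 6 Standard peaks 4 overlapped an ELS peak by at least 1 bp, and of the 4 ELS peaks 2 overlapped a Standard peak. A pair of Standard peaks (folds 1.87 and 1.84) and a pair of ELS peaks (1.85 each) lay in only 1 of the lists. Several of the Fosl2 peaks are labelled in the lists both as gene body and as promoter of another start inside the gene. The closest to such a start was the ELS peak at chr5:32146812-32147027, centred 398 bp behind it.

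At Arc, both lists had a peak inside the gene, centred 1388 bp behind the RefSeq start at chr15:74670945-74671420 in the Standard list (fold 1.84, q-value 0.000272) and 1533 bp behind it at chr15:74670757-74671317 in the ELS list (fold 1.99, q-value 5.12e-06). The Standard list alone had a second one, chr15:74671689-74671968 (fold 1.79). The lone Egr3 peak, chr14:70079668-70080091 in the Standard list, had a fold of 1.77, and 17.1% of that list's peaks lay lower. All peaks of Arc and Egr3 are labelled as promoter peaks in the lists, centred 740 to 2434 bp behind the nearest start. Folds of the 9 Standard and 5 ELS peaks joined to members by gene name ran from 1.70 to 2.25, where the list medians were 1.96 and 1.92.

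**Figure D5:**
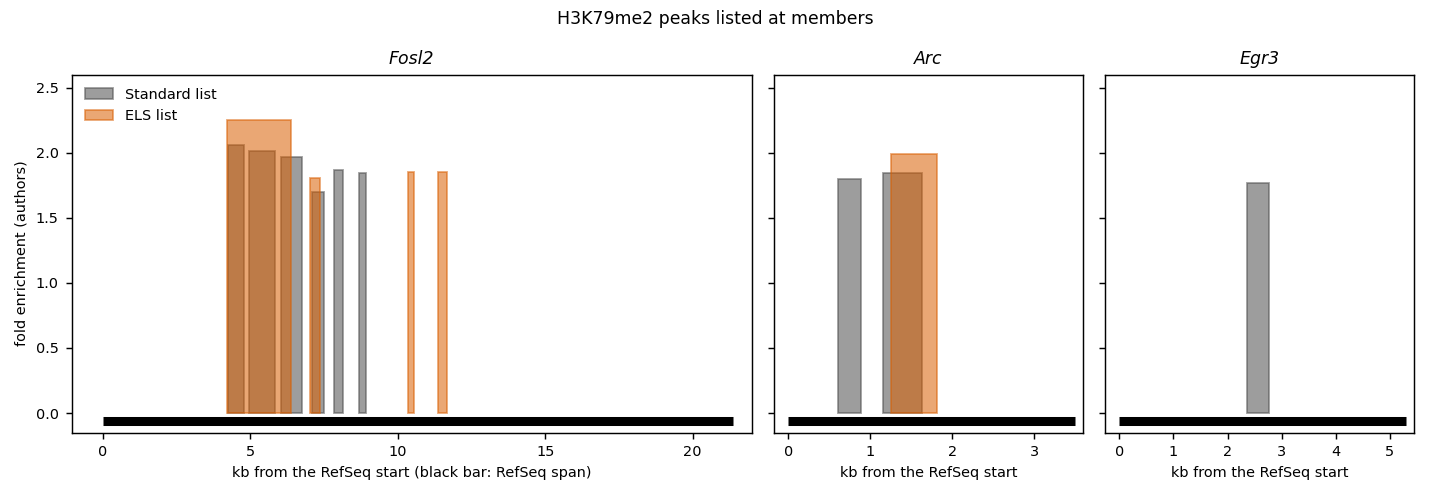
Bars span each listed H3K79me2 peak from end to end, with the authors' fold enrichment as height and distance from the RefSeq start on the x axis in kb, in grey for the Standard and orange for the ELS list. At Fosl2, 1 wide ELS peak of 2178 bp stands over 3 separate Standard peaks, and at Egr3 only the Standard list has a peak.

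The remaining 7 members had no peak by name in either list. For Fos, Fosb, Jun and Egr1 there was also none within 10000 bp of the RefSeq span. Npas4 had 2 peaks in each list inside its RefSeq span of 19087 bp that the lists annotate as intergenic and that lie upstream of the start used for its promoter window, the stronger ones at chr19:4996851-4997722 in the Standard list (fold 2.28) and chr19:4996845-4997455 in the ELS list (fold 1.97). Beyond Nr4a1, at the neighbouring gene Atg101, both lists had a wide peak, 3263 bp in the Standard list (fold 2.84, 9593 bp away) and 3134 bp in the ELS list (fold 2.43, 9657 bp away). The nearest to Junb lay 5470 bp away at Prdx2 and Rnaseh2a, in the Standard list. None of the 7 promoter windows, including the 5 printed above, was touched by a peak of either list. How many of all promoter windows a peak touches was not computed, so this is a description only. For comparison, 14 of the 33 other immediate early genes had a peak in the Standard list and 10 had one with ELS, and of the 18 kinase and phosphatase genes 15 had one in each. Late response genes had 7 of 18 and upstream factors 11 of 15 in each list, and heat shock genes 4 and 3 of 8. Over all genes tested for RNA the shares were 56.9% and 52.7%, and gene length was not matched in these counts.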

How the data were processed

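RNA of 32 libraries of whole nucleus accumbens was analysed from the deposited table of raw counts per gene. The submitters' processing notes name FastQC, HISAT2, featureCounts, DESeq2 and the mm10 build, without versions or roles. The table's own name speaks of another counter, HTSeq, and the sources used here do not say whether counting used strand, so a gene and an overlapping antisense gene cannot be told apart. H3K79me2 peaks were used as deposited, per the file headers with a fold (a ratio over background) and a q-value for each peak; neither the peak caller nor how libraries were combined into 1 list for each rearing group is stated. Whether peak starts count from 0 or 1 is not stated, and coordinates are printed as the lists have them.

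Genes were filtered with filterByExpr, scaled by TMM and tested in 1 quasi-likelihood fit of the 4 groups in edgeR 4.0.16 (R 4.3.3), 2-sided, with Benjamini-Hochberg adjustment over all 14016 genes and a threshold of 0.05. SEs of log2 differences were taken as the size divided by the square root of its F. Correlations used log2 CPM with a prior count of 2, minus group means, and permutations within groups (Python 3.11.15, numpy 2.4.6, scipy 1.17.1, pandas 2.3.3). Figures were drawn with matplotlib 3.10.9. The fit and the correlation step were tested on simulated data with known answers.

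Alternatives were DESeq2 1.42.0, limma 3.58.1 with voom quality weights, no filter, removal of the 4 shallow libraries, the number in the titles as a factor, each library left out in turn, another prior count of 0.5, rank correlation, and for peaks other thresholds. A pair of alternatives for the correlations was chosen after seeing the data. The members and lists were chosen with earlier results of these data known. All members are named, with the 2 genes nearest to each by rho, and, for each list and contrast, the gene of smallest p on each side, since none passed the adjusted threshold. A marker of the microglia list is not reported here and was left out of its sum. No library pair was identical, and 0 columns were left unmatched. The libraries carry between 314200 and 11117998 counts, so a level of a few CPM rests on a few reads in the shallowest.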

Additional observations from a re-analysis of the deposited data

Results flagged for a closer look

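Within groups of 8, a library was taken to stand apart when its distance to the nearest other library exceeded 0.526 of the group's range. This was examined for 10 members in 4 groups, 40 sets of values in all, and 11 sets held such a library, always the highest. For normally distributed values chance gives about 1 in 20, but CPM values are skewed: over all tested genes 23.9% of such sets held a library that stood apart, beside 27.5% for the members.

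Overexpression replicate 1 accounted for 4 of them, with Egr1 at 154.8 CPM (next library 60.2 CPM), Arc at 101.4 CPM (32.03 CPM), Nr4a1 at 76.0 CPM (32.9 CPM) and Fosl2 at 38.7 CPM (21.4 CPM). In the other groups Arc stood apart in Standard GFP replicate 5 at 151.5 CPM (62.7 CPM) and in knockdown replicate 4 at 43.9 CPM (23.6 CPM). Fos did so in ELS GFP replicate 4 at 31.9 CPM (16.8 CPM) and in knockdown replicate 8 at 71.9 CPM (33.7 CPM). Jun was far above the rest in ELS GFP replicate 2, at 175.0 CPM (61.5 CPM). Npas4 was so in Standard GFP replicate 4 at 20.7 CPM (11.01 CPM), the shallowest library, and in ELS GFP replicate 6 at 26.6 CPM (14.3 CPM). Fosb, Junb and Egr3 had no library that stood apart in this sense, although the values of Egr3 in Standard GFP replicates 6 and 1 lie together above the rest.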

How the results depend on the processing

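No member passed the adjusted threshold under any alternative, with a lowest adjusted p of 0.173 over 32 fits that each leave out 1 library and 5 others. Over all genes, where edgeR called 0 in each contrast, DESeq2 called 85 for ELS, 41 for overexpression and 2 for knockdown, and edgeR without the 4 shallowest libraries called 7 for ELS and 18 for overexpression; the cause was not tested. Of the 30 fold changes of members 15 kept their sign throughout and 15 changed it under at least 1 alternative.

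With no filter, Egr1 for ELS was 0.0029 and Fos for overexpression 0.0199. With limma voom weights the log2 values for ELS turned to 0.17 (Fos), 0.0214 (Fosb), -0.0012 (Fosl2), 0.04 (Junb), 0.12 (Egr1) and 0.11 (Arc), and for overexpression to 0.32 (Fos), 0.34 (Fosb), -0.15 (Fosl2) and -0.22 (Nr4a1). Without the shallow libraries they turned to 0.0476 (Fos), 0.13 (Egr1) and 0.17 (Arc) for ELS and to 0.072 (Fos), -0.0235 (Fosl2) and 0.0248 (Egr1) for overexpression. With the title number as a factor, ELS gave 0.0944 (Egr1), 0.0567 (Arc) and -0.11 (Npas4).

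Leaving out 1 library at a time gave ranges across 0 for 12 values. For ELS these were -0.36 to 0.17 (Fos), -0.29 to 0.0633 (Junb), -0.24 to 0.24 (Egr1), -0.44 to 0.22 (Arc) and -0.0624 to 0.43 (Npas4). For overexpression they were -0.28 to 0.20 (Fos), -0.14 to 0.20 (Fosl2), -0.0356 to 0.39 (Junb), -0.48 to 0.14 (Egr1) and -0.19 to 0.40 (Nr4a1), and for knockdown -0.0928 to 0.31 (Fosl2) and -0.0655 to 0.78 (Jun).

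Of the 12 member pairs, 6 were left with summed microglia markers regressed out and 8 without Standard GFP replicate 6 and knockdown replicate 8, where Fosb and Egr3 were added. Without the 4 shallowest libraries 9 were left, Fos and Egr1, Fosb and Junb, and Fosl2 and Junb were lost, Jun was added with Fosb, Egr1 and Junb, and Fos and Jun had r = 0.74 in place of 0.47. At a fold of at least 2, the Standard list held 2 peaks at members by gene name and the ELS list 1, and 2 Standard peaks were shared when an overlap had to cover 50% of both peaks. No paired analysis was possible because the labels give no replicate numbers for the RNA libraries, which were numbered in accession order.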
